A study of Mus musculus with 20 samples.

Results

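Heme is made, taken up, carried and broken down by a small set of proteins, and 10 of their genes were followed here in the liver of mice that had undergone sham surgery or Roux-en-Y gastric bypass (RYGB). The genes were listed by symbol from their known roles, with earlier results of these data known. All 10 were found among the 54532 genes of the count table. They cover synthesis (*Alas1*, *Alas2*, *Urod*, *Fech*), scavenging and transport (*Hpx*, *Slc48a1*, *Pgrmc1*) and breakdown (*Hmox1*, *Blvra*, *Blvrb*). All 10 passed the filter on low counts (3 or more mice with a CPM of 2 or above) and are among the 12289 genes tested.

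The mice were male C57BL/6 mice made obese by 12 weeks of high-fat diet (HFD) before surgery, so every group carried that history. After RYGB, which routes food past most of the stomach and the upper small intestine, or after sham surgery, they ate chow or HFD for 8 weeks. The lean-diet groups are Sham Chow and RYGB Chow and the fat-diet groups Sham HFD and RYGB HFD, with 5 mice each and 1 library of poly-A RNA per liver. Each library held between 14604854 and 22537498 counts (median 19056997). The tissue carried its defining transcripts in every mouse, with 6 hepatocyte transcripts summing to between 74527 and 124605 CPM (counts scaled to library size with TMM factors). RYGB Chow replicate 3 stood apart from its group, with the highest sum of 11 macrophage transcripts of all 20 mice (681 CPM) and the lowest hepatocyte sum of its group (77534 CPM), and results that turn on it are also given without it.

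Heme is an iron-bearing ring that sits in cytochromes, catalase and hemoglobin. The liver is the main site of its synthesis outside the bone marrow, because hepatocytes fill their cytochrome P450 enzymes with it, and free heme in turn holds the first enzyme of the path, made from *Alas1*, in check. The liver also secretes hemopexin, which binds free heme in plasma, while its resident macrophages, the Kupffer cells, take in aged red cells and open the ring with heme oxygenase, which gives biliverdin, iron and carbon monoxide.

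Per kilobase of exon, the 10 transcripts spanned from 2287 CPM per kb for *Hpx* to 4.40 for *Blvra* as means over the 20 mice. *Pgrmc1* followed *Hpx* with 629 CPM per kb. *Alas1* (71.0), *Blvrb* (36.5), *Alas2* (36.2), *Urod* (27.5), *Slc48a1* (18.8), *Fech* (14.1) and *Hmox1* (10.4) lay between them in that order. *Blvrb* and *Alas2* stood nearly level in this order, at 41.7 ± 9.31 and 41.9 ± 5.72 CPM per kb in Sham Chow (mean ± SD, n = 5 mice). The rarest transcripts still rested on many reads, with at least 127 counts per mouse for *Blvra* and at least 149 for *Hmox1*.

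**Figure D1:**
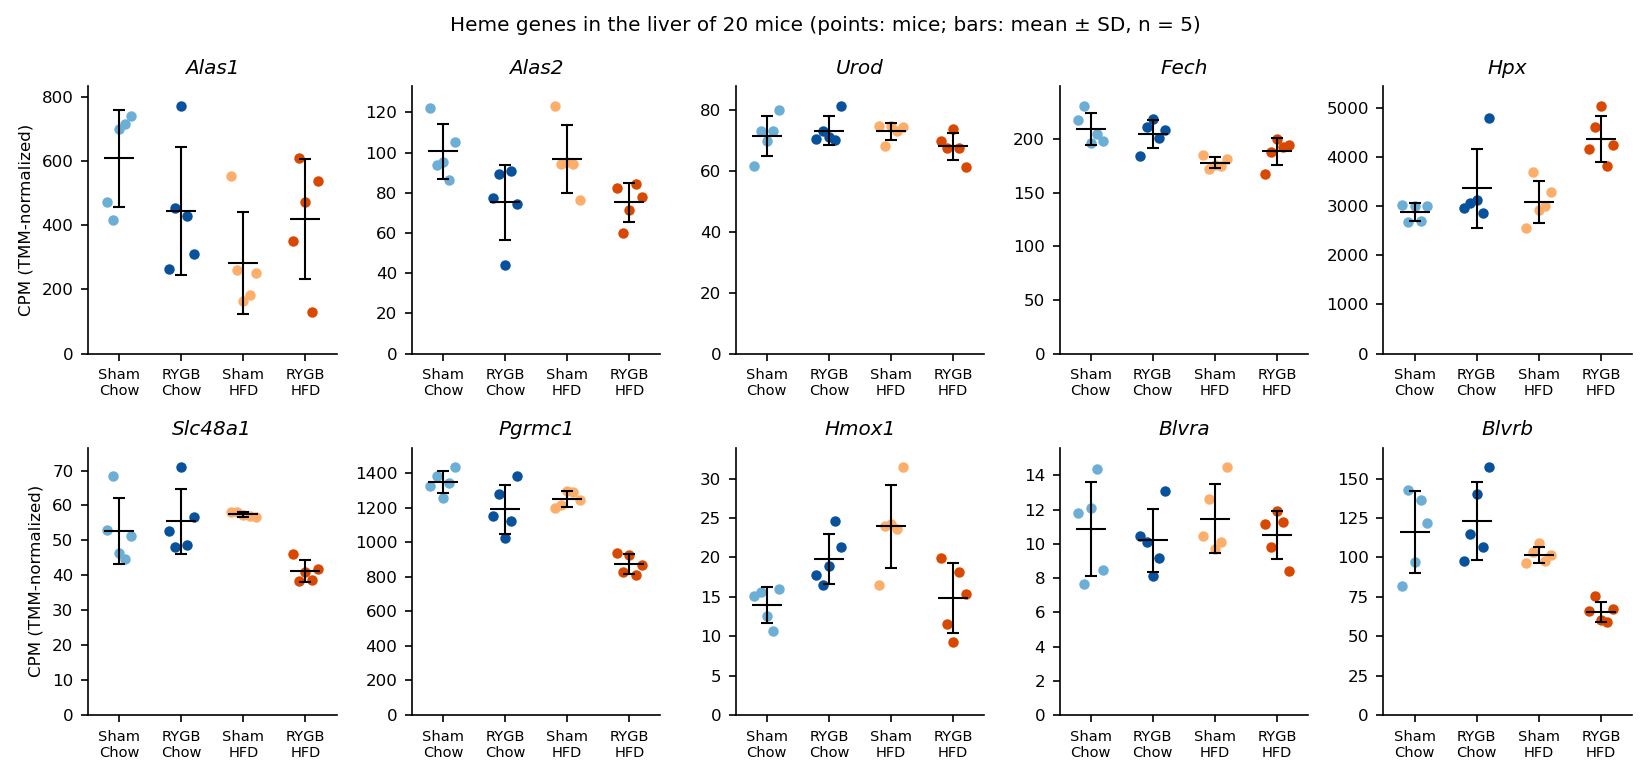
Transcript level of the 10 heme genes in the 20 livers, in CPM (TMM-normalized) on axes that start at 0. Each point is a mouse, and the bar marks the mean ± SD of 5 mice. In RYGB HFD all 5 mice lay below all 5 Sham HFD mice for *Slc48a1*, *Pgrmc1* and *Blvrb* and above them for *Hpx*.

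The comparison of Sham HFD with RYGB HFD asks how the heme genes differed after surgery while the mice stayed on HFD. The study reports that Sham HFD mice were heavier than every other group and calls this a confounder. Effects of surgery or diet and of body weight therefore cannot be told apart in contrasts with Sham HFD, nor in the interaction. Of the 10 genes, 1 rose in RYGB HFD (*Hpx*) and 4 fell (*Slc48a1*, *Pgrmc1*, *Hmox1*, *Blvrb*) at an adjusted p under 0.05 in edgeR's quasi-likelihood test, beside 16.4% of all tested genes in either direction (8.54% higher, 7.9% lower). The median log2 fold change was -0.24 over the 10 genes and 0.01 over all tested genes. None of the 4 synthesis genes passed. For 4 of the 10 genes the groups did not overlap, beside 14.7% of all tested genes.

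When the same surgery was followed by chow (Sham Chow vs. RYGB Chow), 0 of the 10 genes passed in edgeR's test, beside 0.057% of all tested genes. At an unadjusted p under 0.05 there were 3, *Alas2*, *Pgrmc1* and *Hmox1*, beside 10.8% of all tested genes. DESeq2 and limma-voom also called 0 of the 10. In Sham Chow vs. Sham HFD, which sets obese sham mice against sham mice returned to chow, *Alas1* and *Fech* fell and *Hmox1* rose on HFD, 3 of 10 beside 21.6% of all tested genes, and the groups did not overlap for 2 of 10, beside 16.5%. In RYGB Chow vs. RYGB HFD, *Slc48a1*, *Pgrmc1* and *Blvrb* fell on HFD, 3 of 10 beside 3.65% of all tested genes (1.65% lower), and none of these 3 overlapped between the groups, beside 5.05% of all tested genes. The study had already named these 3 as lower on HFD after RYGB in the same livers. It also named *Hpx* as induced there, from genes with an adjusted p under 0.05, and *Hmox1* as not upregulated. *Alas2* it placed among genes reduced by RYGB, at an unadjusted p under 0.05 on each diet. In edgeR here, *Hpx* had an adjusted p = 0.101 for that diet difference. The surgery differences of *Alas2* had an unadjusted p = 0.0145 on chow and 0.0326 on HFD. Since the 10 genes were chosen with earlier results known, their share beside all genes is a description and not a test. The surgery by diet interaction, the diet change in RYGB mice less that in sham mice, passed for *Slc48a1*, *Hmox1* and *Blvrb*, all negative, 3 of 10 beside 5.06% of all tested genes (2.58% lower). Neighbouring comparisons share a group of mice, so their counts are not independent.

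**Figure D2:**
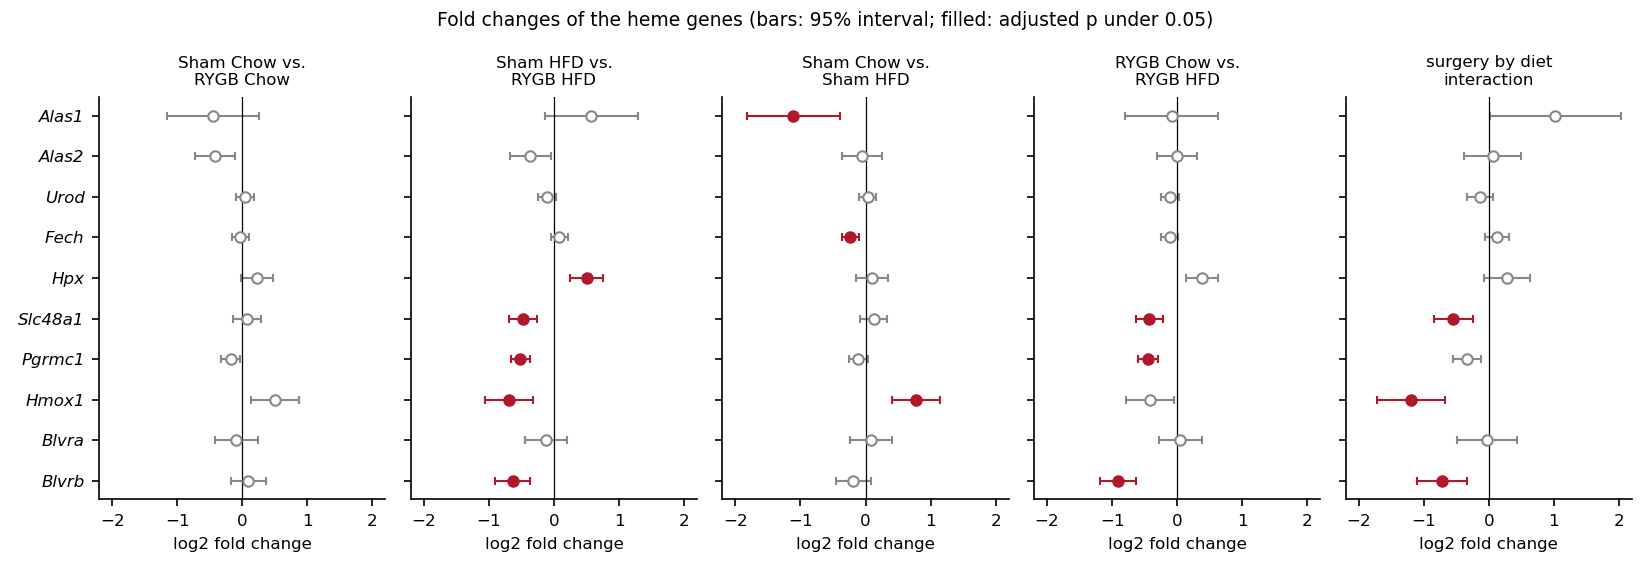
Log2 fold changes of the 10 heme genes in the 4 contrasts and the surgery by diet interaction, as the second group over the first. Points are edgeR estimates with bars of the 95% interval, and filled points passed an adjusted p under 0.05. The filled points are *Hpx*, *Slc48a1*, *Pgrmc1*, *Hmox1* and *Blvrb* in Sham HFD vs. RYGB HFD, *Alas1*, *Fech* and *Hmox1* in Sham Chow vs. Sham HFD, and *Slc48a1* with *Blvrb* in both RYGB Chow vs. RYGB HFD and the interaction, joined by *Pgrmc1* in the former and *Hmox1* in the latter.

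*Alas1* (ENSMUSG00000032786, chr9:106233455-106248654, minus strand of GRCm38) encodes the housekeeping form of 5-aminolevulinate synthase, the rate-limiting first enzyme of heme synthesis in hepatocytes. The Sham Chow mice had 472, 415, 698, 716 and 738 CPM in replicates 1 to 5, and the Sham HFD mice had 554, 261, 163, 183 and 250.2 CPM. The RYGB Chow mice had 264, 452, 771, 428 and 309 CPM, and the RYGB HFD mice 351, 608, 472, 131 and 536 CPM. In 3 of the 4 groups it varied more between mice than any other of the 10 genes, with a coefficient of variation of 55.9% in Sham HFD. In sham mice the level fell by 1.11 on the log2 scale on HFD (SE 0.37, adjusted p = 0.0360 in edgeR), from 608 ± 152 to 282 ± 158 CPM (mean ± SD, n = 5 mice each; exact permutation test, two-sided p = 0.0238). The groups overlapped because Sham HFD replicate 1 lay above 2 of the Sham Chow mice. This call was lost in 7 of the 20 fits that left out 1 mouse, those without Sham Chow replicates 3, 4 or 5 or without Sham HFD replicates 2, 3, 4 or 5 (log2 fold change between -1.5 and -0.96 over the 20 fits, adjusted p up to 0.0886). With RYGB the diet difference was -0.08 (SE 0.36, adjusted p = 0.939), and the interaction was 1.02 (SE 0.52, adjusted p = 0.264), so the sham and RYGB diet changes were not shown to differ. Surgery differences were -0.45 on chow and 0.57 on HFD, with adjusted p = 0.704 and 0.305 in edgeR.

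*Alas2* (ENSMUSG00000025270, chrX:150547375-150570638, plus strand) encodes the red cell form of the same enzyme, which developing red cells use to make hemoglobin. Its translation is known to be held back through an iron-responsive element, a hairpin in the 5′ UTR to which iron regulatory proteins bind when iron is scarce. The element was located in the GENCODE M21 transcript at chrX:150547461-150547483 (GRCm38, plus strand), as the CAGTG loop followed by any base with 5 paired bases on each side, and is shown since it ties this transcript to iron supply. Capitals mark the loop.
*Alas2* iron-responsive element: gttcgtcctCAGTGCagggcaac
The exons of *Alas2* share 311 bases with *Apex2* on the other strand (7.50 CPM as a mean over the 20 mice), and reads of the 2 genes could not be told apart there without the strand setting of the counting. Counts do not read the translation that this element governs. The transcript stood at 122, 93.9, 95.5, 86.4 and 105 CPM in Sham Chow and 77.5, 89.1, 44.0, 90.8 and 74.4 in RYGB Chow. In Sham HFD it stood at 123, 94.1, 95.4, 94.1 and 76.6 CPM, and in RYGB HFD at 82.3, 60.1, 71.3, 84.5 and 78.0. The RYGB means were the lower ones on either diet, 75.1 ± 18.8 against 101 ± 13.7 CPM on chow and 75.2 ± 9.86 against 96.7 ± 16.8 CPM on HFD (mean ± SD, n = 5), with overlap in both. Neither surgery difference passed in edgeR. It was -0.42 on chow (SE 0.16, adjusted p = 0.322; exact permutation test, p = 0.0238) and -0.36 on HFD (SE 0.16, adjusted p = 0.123; exact permutation test, p = 0.0317). Without RYGB Chow replicate 3, which had the lowest *Alas2* of all mice and enters the estimate of the spread, the HFD difference passed (adjusted p = 0.0364). The diet difference was -0.06 in sham mice and 0.00 in RYGB mice on the log2 scale, neither past the threshold.

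Red cell transcripts were set beside *Alas2*, since blood left in the tissue carries it. Of 13 red cell genes listed, 12 were in the table and 5 passed the low-count filter, the 4 globin genes and *Klf1*. In edgeR 0 of the 5 was called in any of the 5 tests, 0 had an unadjusted p under 0.05, and DESeq2 and limma-voom also called 0. Among factors and surface proteins of red cell precursors, *Kel* was at 0 in all 20 mice and *Gata1* at 0 in all Sham Chow and all Sham HFD mice, whereas *Klf1* was present in every mouse, between 2.33 and 8.07 CPM. The sum of the 12 ran from 65.0 to 383 CPM in Sham Chow and 58.4 to 299 in RYGB Chow. It ran from 160 to 239 CPM in Sham HFD and 33.8 to 219 in RYGB HFD. Relative to its mean, the sum varied far more between mice than *Alas2* did in Sham Chow, RYGB Chow and RYGB HFD, but not in Sham HFD. The Sham HFD sum was 205 ± 32.3 CPM beside 96.7 ± 16.8 CPM of *Alas2* (mean ± SD, n = 5). The mouse with the lowest sum, RYGB HFD replicate 3, had 71.3 CPM of *Alas2*. The part of blood in the *Alas2* values was not tested. In whole tissue, fewer cells of a type and less RNA per cell cannot be told apart.

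**Figure D3:**
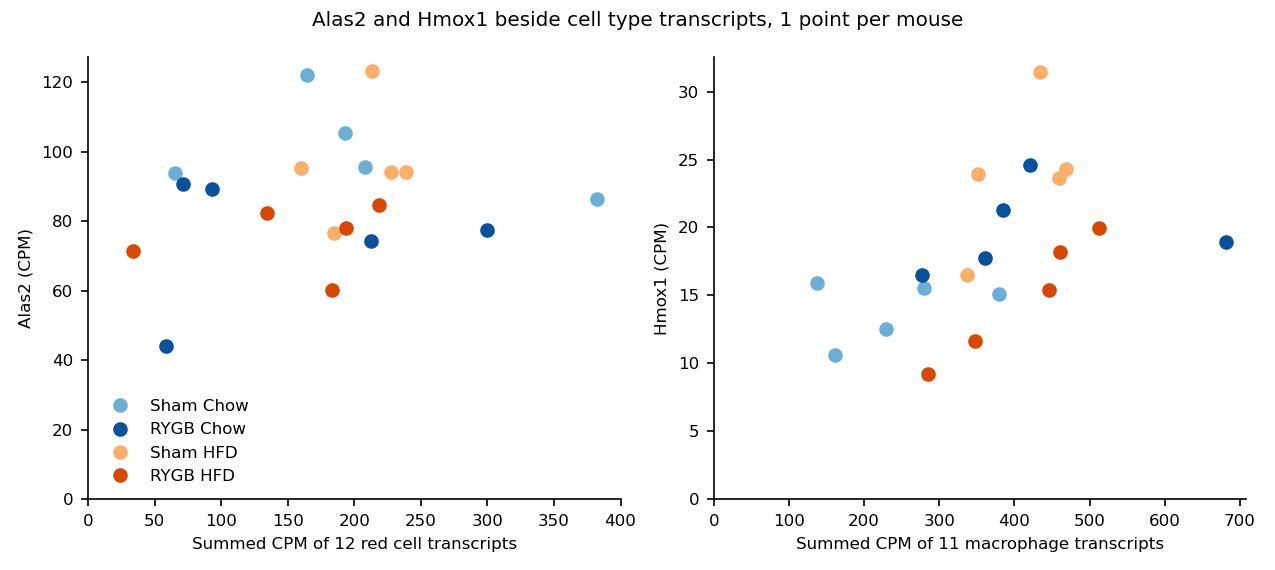
Left, *Alas2* against the summed CPM of 12 red cell transcripts; right, *Hmox1* against the summed CPM of 11 macrophage transcripts. Each point is 1 of 20 mice. The red cell sum runs from 33.8 to 383 CPM, and the highest macrophage sum, 681 CPM, belongs to RYGB Chow replicate 3.

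*Urod* (ENSMUSG00000028684, chr4:116989965-116994413, minus strand) encodes uroporphyrinogen decarboxylase, a cytosolic step in the middle of the path. It stayed between 61.3 and 81.3 CPM in all 20 mice, and its group means lay between 68.0 and 73.2 CPM. No contrast passed, and the intervals of its 4 log2 differences all lay between -0.24 and 0.17.

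*Fech* (ENSMUSG00000024588, chromosome 18) encodes ferrochelatase, the mitochondrial enzyme that sets iron into the finished ring. The 5 Sham Chow mice had 218, 231, 196, 204 and 198 CPM, and the 5 Sham HFD mice had 185, 172, 176, 175 and 181. Every Sham HFD mouse lay below every Sham Chow mouse. The transcript fell by 0.24 on the log2 scale on HFD in sham mice (SE 0.07, adjusted p = 0.0150 in edgeR; exact permutation test, two-sided p = 0.00794, the smallest possible with 5 mice against 5). RYGB Chow livers spanned 184 to 219 CPM and RYGB HFD livers 167 to 200.2 CPM, a difference of -0.12 (SE 0.07, adjusted p = 0.359). The interaction was 0.12 (SE 0.09, adjusted p = 0.504), and its sign turned to -0.02 when libraries were scaled by size only. The sham diet call, small in size, was also lost under that scaling (log2 fold change -0.11, adjusted p = 0.351), which moved the median of all tested genes by 0.127 in this contrast.

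Across 7 enzymes of the path from glycine to heme, the first varied most between mice. Over the 20 mice, *Alas1* had 71.0 ± 32.3 CPM per kb (mean ± SD), while *Alad*, the next step, had 70.4 ± 8.13. *Uros* and *Ppox* were the lowest, with 5.96 ± 0.908 and 4.63 ± 0.643 CPM per kb. Per kilobase, *Alas1* stood on average at 2.40 times *Alas2* in Sham Chow and 2.71 times in RYGB Chow. The ratio was 1.10 in the Sham HFD livers and 2.29 in the RYGB HFD livers. The Sham HFD ratios ran from 0.663 to 1.75 and overlapped those of every other group. Among 15 further genes of the path, its carriers and its iron supply, 1 passed in Sham HFD vs. RYGB HFD, the mitochondrial transporter *Abcb10*, which interacts with ferrochelatase (log2 fold change 0.38, SE 0.09, adjusted p = 0.00431). *Abcb10* fell by 0.25 in Sham Chow vs. Sham HFD (SE 0.09, adjusted p = 0.0469), and *Uros* rose in RYGB Chow vs. RYGB HFD (0.41, SE 0.10, adjusted p = 0.0244). The *Uros* call was lost with library size only, with no filter and with only 2 groups. In Sham Chow vs. Sham HFD, 8 alternative fits called 0 to 3 of the 15 genes. The median of the 15 was 0.00 in Sham HFD vs. RYGB HFD.

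**Figure D4:**
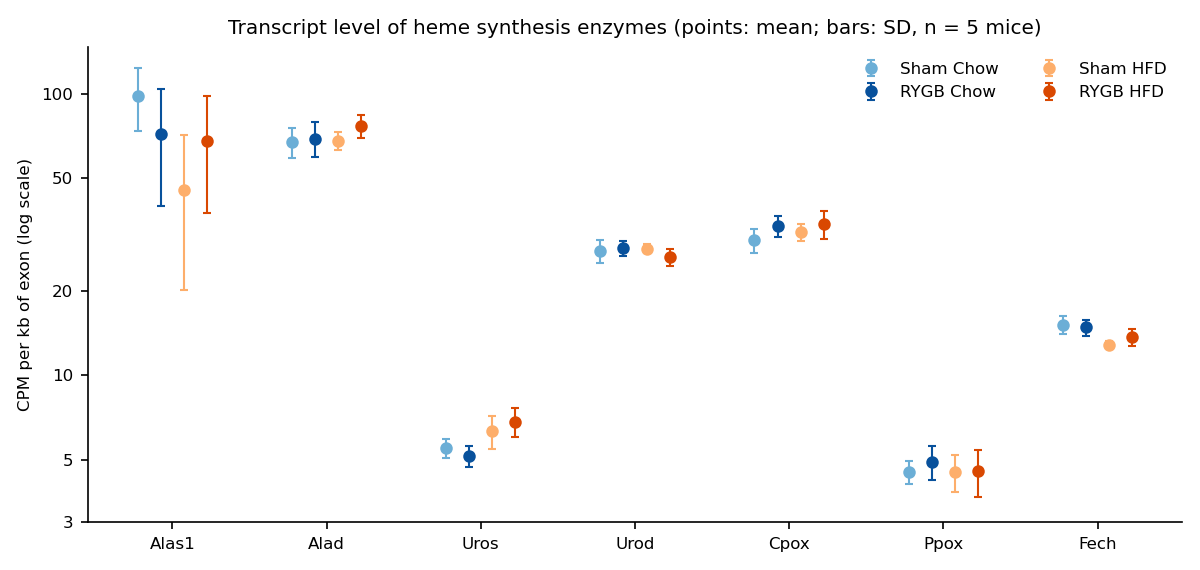
Level of 7 heme synthesis enzymes in path order, as CPM per kilobase of exon on a log axis. Points are group means and bars the SD of 5 mice. *Alas1* spreads widest, with group means between 45.7 and 98.4 CPM per kb, while the means of *Urod* and *Fech* stay within narrow bands.

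*Hpx* (ENSMUSG00000030895, chr7:105591613-105600137, minus strand) encodes hemopexin, the plasma protein that hepatocytes secrete and that binds free heme with very high affinity. The Sham HFD mice had 2551, 3691, 2916, 3009 and 3287 CPM, and the RYGB HFD mice had 4170.1, 4607, 5044, 3811 and 4239 CPM. All RYGB HFD mice lay above all Sham HFD mice. The level rose from 3091 ± 426 to 4374 ± 469 CPM (mean ± SD, n = 5), a log2 fold change of 0.50 (SE 0.13, adjusted p = 0.00922 in edgeR; exact permutation test, p = 0.00794), and the call held without any 1 mouse. On chow, the Sham Chow mice lay between 2675 and 3032 CPM, and the RYGB Chow mice at 2972, 3059.5, 3128, 2868 and 4795 CPM. RYGB Chow replicate 5 lay far above the others of its group. The surgery difference on chow was 0.22 (SE 0.13, adjusted p = 0.550) and the interaction 0.28 (SE 0.18, adjusted p = 0.395). The diet difference in RYGB mice was 0.38 (SE 0.13, adjusted p = 0.101), and without RYGB Chow replicate 5 it was 0.54 and passed (adjusted p = 0.00532).

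Beside this rise, 4 of 6 hepatocyte marker genes were also higher in RYGB HFD than in Sham HFD and 1 (*Ttr*) was lower. The summed hepatocyte transcripts ran from 74527 to 86889 CPM in Sham HFD and from 102825 to 124193 CPM in RYGB HFD, with no overlap. Their part in the *Hpx* difference was not tested. Haptoglobin (*Hp*), the hemoglobin scavenger of plasma, rose in Sham Chow vs. Sham HFD (log2 fold change 0.46, SE 0.13, adjusted p = 0.0134) and in RYGB Chow vs. RYGB HFD (0.52, SE 0.13, adjusted p = 0.0250). The *Hp* call in RYGB mice was lost in the fit of only 2 groups. Per kilobase, *Hpx* stood at 1.62 ± 0.103 times *Hp* in Sham Chow and 1.27 ± 0.0849 times in Sham HFD (mean ± SD of 5 ratios), and the ratios of these groups did not overlap.

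*Slc48a1* (ENSMUSG00000081534, chr15:97778520-97792692, plus strand) encodes HRG1, the membrane transporter that lets heme out of the digestive compartments of macrophages. The Sham HFD mice were close together, at 58.1, 58.2, 57.2, 57.0 and 56.7 CPM, and the RYGB HFD mice had 46.1, 38.5, 40.9, 38.7 and 41.9 CPM. RYGB HFD lay wholly below Sham HFD. The difference was -0.48 (SE 0.11, adjusted p = 0.00436 in edgeR) and held without any 1 mouse. On chow the sham mice had 53.0, 68.5, 46.2, 44.5 and 51.3 CPM and the RYGB mice 52.6, 48.2, 70.9, 48.6 and 56.8 CPM, which overlapped throughout (0.07, SE 0.11, adjusted p = 0.866). *Slc48a1* fell by 0.43 in RYGB Chow vs. RYGB HFD (SE 0.11, adjusted p = 0.0322), and the interaction was -0.55 (SE 0.15, adjusted p = 0.0413). Both calls were close to the threshold. The former was lost in 5 of 20 fits without 1 mouse, those without RYGB Chow replicates 3 or 5 or RYGB HFD replicates 2, 3 or 4 (adjusted p up to 0.0779), and the latter in 16 of 20 (adjusted p between 0.00548 and 0.0791).

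*Pgrmc1* (ENSMUSG00000006373, chrX:36598206-36606079, plus strand) encodes a heme-binding membrane protein that associates with cytochrome P450 enzymes and with ferrochelatase. The Sham HFD mice had 1201, 1219, 1299.5, 1293 and 1246 CPM, and the RYGB HFD mice had 936, 829.5, 928, 811 and 869 CPM. The RYGB HFD mice lay below every mouse of the other 3 groups. On HFD surgery was followed by a fall of 0.52 on the log2 scale (SE 0.08, adjusted p = 1.12e-04 in edgeR), from 1252 ± 43.7 to 875 ± 56.5 CPM (mean ± SD, n = 5). Sham Chow held 1324, 1387, 1259.6, 1345 and 1435 CPM, and RYGB Chow 1153, 1281, 1023, 1123 and 1386 CPM. On chow the difference was -0.18 (SE 0.08, unadjusted p = 0.0302, adjusted p = 0.401 in edgeR; exact permutation test, p = 0.0635). HFD lowered it by 0.45 in RYGB mice (SE 0.08, adjusted p = 0.00205), and the diet difference in sham mice was -0.11 (SE 0.08, adjusted p = 0.319). The interaction, -0.34 (SE 0.11), did not pass (adjusted p = 0.0753), but it passed without RYGB Chow replicate 3 (adjusted p = 0.0230). Its paralog *Pgrmc2*, also a heme-binding protein, fell in Sham HFD vs. RYGB HFD by a like amount (log2 fold change -0.56, SE 0.08, adjusted p = 1.33e-04).

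Among 11 tested genes of 12 listed for carriers, receptors and exporters, 4 passed in Sham HFD vs. RYGB HFD. Beside *Pgrmc2*, 3 were higher, *Lrp1*, the receptor that clears hemopexin with its heme (0.50, SE 0.13, adjusted p = 0.00953), *Ambp*, the precursor of the heme binder alpha-1-microglobulin (0.32, SE 0.08, adjusted p = 0.00988), and *Trf* (0.59, SE 0.09, adjusted p = 1.46e-04). *Trf* encodes transferrin, which carries iron and not heme. With HFD in sham mice *Hp* was higher and *Trf* and *Ambp* lower, while in RYGB Chow vs. RYGB HFD *Lrp1*, *Trf* and *Hp* were higher. The latter 3 calls were lost in the fit of only 2 groups. *Trf* was the 1 gene of this list that passed the interaction (0.75, SE 0.13, adjusted p = 0.00201).

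The proximal promoters of *Hpx*, *Pgrmc1* and *Blvrb* are shown because these transcripts differed between Sham HFD and RYGB HFD with no overlap between mice, the first upward and the others downward. RefSeq start sites (GRCm38.p6) were found for 7 of the 10 genes, and the 250 bases before the start are given in the direction of transcription. Windows were searched on both strands for the core of the antioxidant response element, TGACNNNGC, to which NRF2 and BACH1 bind, for the core of the hypoxia response element, ACGTG, and for the STAT site TTCNNNGAA. Of 32851 such windows over all genes, 10.2%, 16.6% and 7.02% held these letters. Capitals mark matches. *Hpx* (chr7:105600117-105600366, minus strand) and *Pgrmc1* (chrX:36597943-36598192, plus strand) each held 1 match to TGACNNNGC, which in *Hpx* is read on the other strand, and the first start site of *Blvrb* (chr7:27447728-27447977, plus strand) held none of the 3. The window before a second *Blvrb* start site (chr7:27452168-27452417), not shown, held 1 match to ACGTG. Matches were also found in genes not called in Sham HFD vs. RYGB HFD, whose windows are not shown. *Blvra* held TGACNNNGC and *Urod* held ACGTG, although neither gene passed in any contrast, and *Alas1* held TTCNNNGAA.
*Hpx*: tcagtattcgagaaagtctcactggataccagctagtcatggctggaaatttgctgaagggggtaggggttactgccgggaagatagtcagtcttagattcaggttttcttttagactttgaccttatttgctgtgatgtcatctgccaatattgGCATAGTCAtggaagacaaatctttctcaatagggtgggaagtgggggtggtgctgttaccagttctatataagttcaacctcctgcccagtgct
*Pgrmc1*: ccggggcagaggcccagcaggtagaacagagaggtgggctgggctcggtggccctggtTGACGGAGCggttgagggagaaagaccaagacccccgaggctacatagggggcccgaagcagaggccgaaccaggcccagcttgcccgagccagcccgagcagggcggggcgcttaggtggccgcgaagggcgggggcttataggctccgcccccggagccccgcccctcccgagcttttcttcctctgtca
*Blvrb*: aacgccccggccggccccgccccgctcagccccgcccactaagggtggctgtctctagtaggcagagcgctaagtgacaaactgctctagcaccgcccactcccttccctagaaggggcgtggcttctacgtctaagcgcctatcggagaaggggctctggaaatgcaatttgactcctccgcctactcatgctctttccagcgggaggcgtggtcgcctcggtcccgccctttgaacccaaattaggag
The matches are letters found in these windows, and binding was not measured.

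*Hmox1* (ENSMUSG00000005413, chr8:75093621-75100589, plus strand) encodes the inducible heme oxygenase, which opens the ring, and is switched on by heme and oxidative stress as BACH1 leaves and NRF2 binds its enhancers. The Sham Chow mice had 15.1, 15.6, 12.5, 10.6 and 15.9 CPM, and the Sham HFD mice 16.5, 23.9, 24.3, 23.6 and 31.4 CPM. All Sham HFD mice lay above all Sham Chow mice, and the level rose by a log2 fold change of 0.78 (SE 0.19, adjusted p = 0.00573 in edgeR; exact permutation test, p = 0.00794). The RYGB Chow mice had 17.8, 16.5, 18.9, 24.6 and 21.3 CPM, and the RYGB HFD mice 19.96, 11.6, 9.22, 18.2 and 15.4 CPM. In RYGB mice the chow mean was the higher one, with 19.8 ± 3.21 CPM on chow and 14.9 ± 4.46 CPM on HFD (mean ± SD, n = 5), although that difference alone did not pass (-0.41, SE 0.19, adjusted p = 0.237 in edgeR; exact permutation test, p = 0.0952).

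The surgery difference of *Hmox1* had opposite signs on the 2 diets. On HFD RYGB mice had less of it, a log2 fold change of -0.69 (SE 0.19, adjusted p = 0.0145 in edgeR), with RYGB HFD replicates 1 and 4 above the lowest Sham HFD mouse. Without Sham HFD replicate 5, the highest of its group, the call was lost by a small margin (adjusted p = 0.0509). On chow the mean was higher after RYGB by 0.50 (SE 0.19, unadjusted p = 0.0143, adjusted p = 0.321 in edgeR), a difference that did not pass, although every RYGB Chow mouse lay above every Sham Chow mouse (exact permutation test, p = 0.00794), 1 of the 10 genes beside 1.33% of all tested genes. The interaction was -1.19 (SE 0.27, adjusted p = 0.0129), and it passed in all 20 fits without 1 mouse (log2 value between -1.32 and -1.06).

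Kupffer cells are a main site of *Hmox1* and *Slc48a1* in the liver, so macrophage genes were set beside them. Of 11 macrophage genes, 7 rose in Sham Chow vs. Sham HFD, where *Hmox1* rose, and 0 passed in Sham HFD vs. RYGB HFD (median log2 fold change 0.08, 0 at an unadjusted p under 0.05 in edgeR and 0 called by DESeq2), where *Hmox1* and *Slc48a1* fell. All 11 had positive estimates in Sham Chow vs. RYGB Chow (median 0.82), with 0 past the threshold in edgeR, 10 at an unadjusted p under 0.05 and 3 called by DESeq2. Without RYGB Chow replicate 3, *Hmox1* still did not pass there. In the interaction, where *Hmox1* was negative, all 11 estimates were negative too (median -0.76), and 1 passed in edgeR, *Gpnmb*. This gene was scarce, with a mean of 0.385 CPM in Sham Chow, and DESeq2 and limma-voom called 0 of the 11 in the interaction. Their summed level ran from 138 to 379 CPM in Sham Chow and 277 to 681 in RYGB Chow. Without replicate 3, the RYGB Chow sums ran from 277 to 420 CPM. The counts of macrophage genes above all include this mouse and were not taken without it. The sum ran from 337 to 469 CPM in Sham HFD and 285 to 512 in RYGB HFD. The 2 HFD groups thus overlapped in this sum, and none of the 11 genes was at 0 in a group. Its part in the diet difference of sham mice and in the interaction was not tested.

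Sensors and switches of the path were tested as well, 16 of 17 listed genes. In Sham HFD vs. RYGB HFD, 4 were higher and 1 lower. *Bach1*, the heme-sensing repressor of *Hmox1*, rose (0.38, SE 0.10, adjusted p = 0.00969), as did *Epas1*, which encodes the hypoxia factor HIF2A (0.79, SE 0.15, adjusted p = 0.00128), *Foxo1* (0.42, SE 0.12, adjusted p = 0.0254) and the clock repressor *Nr1d1* (0.42, SE 0.14, adjusted p = 0.0376). *Nfe2l2*, which encodes NRF2 and is named beyond the rule after its values were seen, fell by 0.35 (SE 0.12, adjusted p = 0.0467). This pair moved the other way in Sham Chow vs. Sham HFD, *Bach1* by -0.42 (SE 0.10, adjusted p = 0.00424) and *Nfe2l2* by 0.47 (SE 0.12, adjusted p = 0.00833). In the other 2 contrasts and the interaction 0 of the 16 passed in edgeR, DESeq2 or limma-voom, with 1, 3 and 5 at an unadjusted p under 0.05 in Sham Chow vs. RYGB Chow, RYGB Chow vs. RYGB HFD and the interaction.

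Of 8 other NRF2 and BACH1 target genes tested, 5 fell and 0 rose in Sham HFD vs. RYGB HFD, with a median of -0.56 against 0.01 over all tested genes. *Nqo1*, a quinone reductase, fell by 1.71 (SE 0.23, adjusted p = 4.85e-05) and *Srxn1*, which repairs peroxiredoxins, by 0.81 (SE 0.13, adjusted p = 1.70e-04). The ferritin chains *Fth1* and *Ftl1*, which store the iron that heme oxygenase sets free, fell by 0.53 (SE 0.08, adjusted p = 8.60e-05) and 0.59 (SE 0.10, adjusted p = 2.61e-04). The remaining called gene of this list was *Gclc*, named after its values were seen. On HFD in sham mice, 2 of the 8 rose, *Srxn1* and *Nqo1*, and in RYGB Chow vs. RYGB HFD 3 fell, *Ftl1*, *Nqo1* and *Txnrd1*. In the interaction 4 of 8 were lower, *Nqo1*, *Srxn1*, *Fth1* and *Ftl1*. Surgery on chow gave 0 calls in edgeR, 0 had an unadjusted p under 0.05, DESeq2 called 0, and the median was -0.01.

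**Figure D5:**
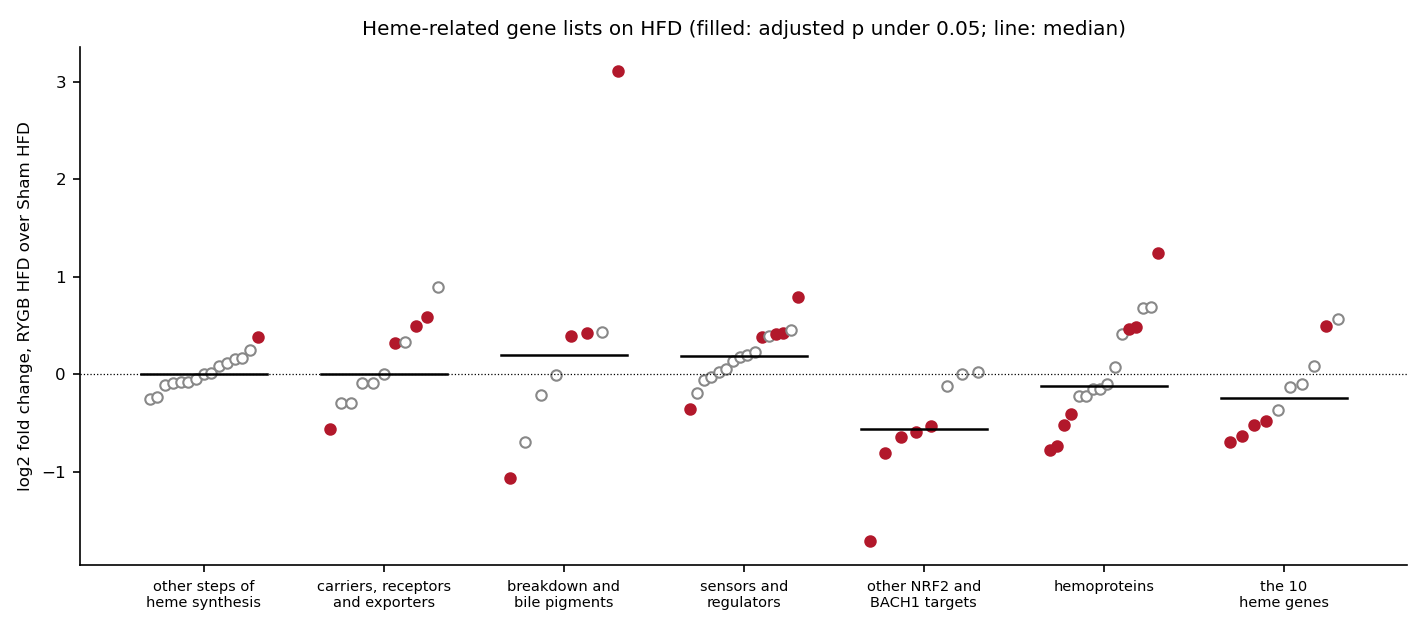
Log2 fold changes in Sham HFD vs. RYGB HFD of the tested genes of 6 heme-related lists and of the 10 heme genes. Each point is a gene, filled where the adjusted p was under 0.05, and the line is the median. The other NRF2 and BACH1 targets lie lowest, with a median of -0.56, and *Slco1a1* is the highest point at 3.12.

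*Hmox2* encodes the constitutive heme oxygenase. It rose in Sham HFD vs. RYGB HFD (log2 fold change 0.40, SE 0.12, adjusted p = 0.0264), where *Hmox1* fell. Per kilobase, *Hmox1* stood at 0.996 ± 0.234 times *Hmox2* in Sham HFD (mean ± SD, n = 5) and at 0.480 ± 0.169 times in RYGB HFD, beside 0.474 ± 0.123 in Sham Chow and 0.613 ± 0.151 in RYGB Chow. In Sham HFD the inducible form was thus level with the constitutive one, and in the other groups it was below it on average.

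*Blvra* (ENSMUSG00000001999, chr2:127070665-127097084, plus strand) encodes biliverdin reductase A, which turns biliverdin into bilirubin in the adult. It was the rarest of the 10 transcripts per kilobase and lay between 7.66 and 14.5 CPM in all mice, with group means from 10.2 to 11.5 CPM. No contrast passed, and the intervals of its 4 log2 differences all lay between -0.45 and 0.41.

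*Blvrb* (ENSMUSG00000040466, chr7:27447978-27466144, plus strand) encodes biliverdin reductase B, which reduces the fetal form of biliverdin and flavins. The Sham HFD mice had 96.5, 103, 109, 98.0 and 102 CPM, and the RYGB HFD mice had 65.7, 75.2, 60.5, 59.3 and 67.3 CPM. The Sham Chow mice had 81.8, 143, 97.2, 136 and 122 CPM, and the RYGB Chow mice 97.6, 115, 140.1, 107 and 157 CPM. All 5 RYGB HFD mice lay below the 15 others. After RYGB, *Blvrb* fell on HFD by 0.91 (SE 0.14, adjusted p = 6.74e-04 in edgeR), the largest called diet difference among the 10 genes in RYGB mice, while the sham diet difference was -0.19 (SE 0.14, adjusted p = 0.335). On HFD it was lower after RYGB than after sham surgery by 0.63 (SE 0.14, adjusted p = 0.00318), and on chow the difference was 0.09 (SE 0.14, adjusted p = 0.871). The interaction was -0.72 (SE 0.19, adjusted p = 0.0350), but 10 of 20 fits without 1 mouse lost it (adjusted p between 0.0154 and 0.0683), those without Sham Chow replicates 3 or 5, RYGB Chow replicates 3 or 5, Sham HFD replicates 2 to 5, or RYGB HFD replicates 3 or 4. *Blvrb* is also abundant in red cells, whose summed transcripts overlapped between Sham HFD (160 to 239 CPM) and RYGB HFD (33.8 to 219 CPM). Per kilobase *Blvrb* stood at 10.1 ± 4.31 times *Blvra* in Sham Chow and 10.8 ± 2.59 times in RYGB Chow (mean ± SD, n = 5). The ratio was 7.98 ± 1.40 for Sham HFD and 5.60 ± 1.2 for RYGB HFD.

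Of 8 further genes of breakdown and bile pigment handling, 4 passed in Sham HFD vs. RYGB HFD. *Ugt1a1*, which conjugates bilirubin, rose (0.43, SE 0.08, adjusted p = 0.00102), and the basolateral uptake carrier *Slco1a1* rose by 3.12 (SE 0.53, adjusted p = 4.06e-04), while *Abcc3*, which exports conjugated bilirubin back to blood, fell by 1.06 (SE 0.13, adjusted p = 1.94e-05). The fourth was *Hmox2*. *Slco1a1* had 508 ± 55.2 CPM in Sham Chow (mean ± SD, n = 5), 70.5 ± 92.5 CPM in Sham HFD and 610.3 ± 120.4 CPM after RYGB on HFD. *Abcc3* had 395 ± 31.8 CPM in Sham HFD and 189.6 ± 35.6 in RYGB HFD. In the interaction *Abcc3* (-1.02, SE 0.18, adjusted p = 0.00333) and *Slco1a1* (2.98, SE 0.71, adjusted p = 0.0185) passed. DESeq2 called 3 of the 8 in Sham HFD vs. RYGB HFD and 1 in the interaction. On HFD in sham mice *Slco1a1* and *Por* were lower and *Abcc2* higher in edgeR. In RYGB Chow vs. RYGB HFD *Abcc3* and *Cyp2a5* were lower in edgeR, where DESeq2 called 3 of the 8 and limma-voom 1.

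Hepatic hemoproteins, the users of heme, were the last group, with 16 of 16 genes tested. On HFD 6 fell and 0 rose in sham mice, led by *Cyp3a11* (log2 fold change -2.76, SE 0.21, adjusted p = 5.33e-08), *Cyp2c29* (-1.52, SE 0.21, adjusted p = 4.34e-05), *Cyp27a1* (-0.68, SE 0.10, adjusted p = 8.06e-05) and *Cyp1a2* (-1.5, SE 0.26, adjusted p = 4.72e-04), in the same contrast in which *Alas1* and *Fech* fell. In RYGB Chow vs. RYGB HFD *Cyp3a11* (-3.67, SE 0.22, adjusted p = 2.06e-09) and *Cyp2c29* (-1.75, SE 0.21, adjusted p = 4.47e-05) fell, with *Alas1* at -0.08. In Sham HFD vs. RYGB HFD 3 rose and 4 fell, led by *Cyp27a1* (0.49), *Cyp1a2* (1.24), *Cyb5b* (-0.52) and *Cyp8b1* (-0.78). Over all 6 lists, Sham Chow vs. RYGB Chow gave 0 calls among 74 genes in edgeR, DESeq2 and limma-voom, with 8 at an unadjusted p under 0.05 in edgeR.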

How the data were processed

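The authors enriched poly-A RNA, made strand-marked (dUTP) libraries, trimmed reads with Trimmomatic 0.36, aligned them to mm10 with HISAT2 2.1.0 and deposited the raw counts per Ensembl gene that featureCounts 1.5.0-p3 assigned, without normalization, per the labels and the study's methods. The annotation release, the strand setting and how multi-mapping reads were treated are not given in the sources used here. Gene symbols (54409 of 54532 genes had one), positions and exon lengths came from GENCODE M21 and the gene name table. All 20 columns were mapped to a sample, and 0 were identical to another. Where nothing else is stated, reads are PCR copies without molecular identifiers, so counting error is only a part of the spread.

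The low-count filter of the study (3 or more mice with a CPM of 2 or above) left 12289 genes to test. Differences were tested with edgeR 4.0.16 in R 4.3.3 (TMM, TMM factors 0.916 to 1.13, quasi-likelihood test, two-sided, Benjamini-Hochberg over all tested genes) in 1 model of the 4 groups, and a gene was called at an adjusted p under 0.05. The SE is the log2 fold change over the root of F, and 95% intervals span 1.96 SE on each side. Exact permutation tests compared log2 of CPM + 0.5 over all 252 splits of 5 mice against 5, whose smallest p is 0.00794. Values per kb are TMM-normalized CPM over the kilobases of all exons joined. Simulated data in which 200 genes had been changed were used to test the fitting.

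The 10 genes, the 6 pathway lists and the 7 marker lists were chosen with earlier results of these data known. All 10 genes are named, and of each list the called genes with the smallest p, at most 4 per contrast. The labels do not state whether replicates differ in cage or day, and name no batch. Alternatives were scaling by RLE factors or by library size only, the tests of limma-voom (limma 3.58.1) and DESeq2 1.42.0, a stricter filter (CPM of 5) or none, a model of just the contrast's 2 groups, the replicate number as a block, pseudocounts of 0.1 and 2, and leaving out each mouse. Promoter windows were read from RefSeq (GRCm38.p6), and *Fech*, *Slc48a1* and *Hmox1* are not shown. Plots were drawn with Python 3.11.15 and matplotlib 3.10.9, and exact tests run with scipy 1.17.1.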

Additional observations from a re-analysis of the deposited data

Results flagged for a closer look

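In 40 groups of 5 mice (10 genes in 4 groups), 4 held a mouse whose gap to its nearest neighbour took more than 0.71 of the group's range, while chance gives about 1 in 20 groups. They were Sham HFD replicate 1 with 554 CPM of *Alas1*, RYGB Chow replicate 5 with 81.3 CPM of *Urod* and 4795 CPM of *Hpx*, and Sham HFD replicate 2 with 68.1 CPM of *Urod*. Sham HFD replicate 1, high in *Alas1*, also had the highest *Alas2* of all 20 mice (123 CPM) and the lowest *Hmox1* of its group (16.5 CPM).

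In edgeR's interaction test 3 of the 10 genes passed, beside 5.06% of all tested genes. Without 1 mouse, the call of *Slc48a1* was lost in 16 of 20 fits and that of *Blvrb* in 10 of 20. The call of *Hmox1* held in all 20. The log2 values of the interaction were -0.55 for *Slc48a1* (adjusted p = 0.0413), -1.19 for *Hmox1* (adjusted p = 0.0129) and -0.72 for *Blvrb* (adjusted p = 0.0350). For *Hmox1* the surgery difference was 0.50 on chow and -0.69 on HFD, and for *Blvrb* it was 0.09 and -0.63.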

How the results depend on the processing

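Calls in Sham HFD vs. RYGB HFD were the firmest. *Hpx*, *Slc48a1*, *Pgrmc1* and *Blvrb* passed under all 8 alternatives and without any 1 mouse, and *Hmox1* under all 8 and in 19 of 20 fits without 1 mouse. Leaving out 1 mouse gave 0 to 15 called genes in Sham Chow vs. RYGB Chow (7 with all mice), 253 to 483 in RYGB Chow vs. RYGB HFD (448), 386 to 802 in the interaction (622) and 1 to 3 of the 10 heme genes in the interaction. For surgery on chow, DESeq2 called 92 genes, limma-voom 3, the fit with no filter 13 and the fit of only 2 groups 0. In RYGB Chow vs. RYGB HFD, DESeq2 called 751 and the fit of only 2 groups 184.

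Scaling by library size only moved the median of all tested genes by 0.127 for diet in sham mice and by -0.141 in the interaction, and left 1 of the 10 heme genes called in the former. It turned small, uncalled differences of *Fech* (0.016 and -0.0091 for surgery on chow and on HFD, -0.025 in the interaction), *Alas2* (0.069 for diet in sham mice, -0.067 in the interaction) and *Pgrmc1* (0.019 for diet in sham mice). The *Alas2* difference in RYGB Chow vs. RYGB HFD, 0.0012 in the reported fit, was -0.0024 with DESeq2, -0.0025 with RLE factors, -0.013 with no filter and -0.0029 with only 2 groups.

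Without 1 mouse, uncalled log2 differences changed sign within these ranges. In Sham Chow vs. RYGB Chow they were -0.013 to 0.079 for *Urod*, -0.059 to 0.0033 for *Fech*, -0.033 to 0.18 for *Slc48a1*, -0.20 to 0.021 for *Blvra* and -0.014 to 0.17 for *Blvrb*. For diet in sham mice they were -0.16 to 0.021 for *Alas2*, -0.018 to 0.075 for *Urod* and -0.023 to 0.20 for *Blvra*. In RYGB Chow vs. RYGB HFD they were -0.26 to 0.20 for *Alas1*, -0.15 to 0.078 for *Alas2* and -0.028 to 0.15 for *Blvra*, and in the interaction -0.091 to 0.15 for *Alas2* and -0.15 to 0.070 for *Blvra*. The cause was not tested.

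Other calls near the threshold turned. The sham diet call of *Alas1* was lost with library size only (adjusted p = 0.0669), that of *Fech* with library size only and with no filter, the RYGB diet call of *Slc48a1* with library size only and with only 2 groups, and the *Slc48a1* interaction with no filter. *Alas2* passed on HFD with library size only and with only 2 groups (lowest adjusted p = 0.0374), *Hpx* in RYGB Chow vs. RYGB HFD with DESeq2 (adjusted p = 0.0499), and the *Pgrmc1* interaction with DESeq2 and library size only. The groups share replicate numbers, and of 30 same-numbered pairs 5 had deviations that correlated above 0.1 (r from -0.257 to 0.165). These correlations cannot decide whether equal numbers mark a shared day or cage, which the labels do not state. With the replicate number as a block, 3 of the heme gene calls were lost, *Alas1* in Sham Chow vs. Sham HFD (adjusted p = 0.0522), *Slc48a1* in RYGB Chow vs. RYGB HFD (adjusted p = 0.0514) and its interaction (adjusted p = 0.0591).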

Other observations

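Other marker lists were counted in the same way. Of 6 stellate cell and fibroblast genes, 6 rose in Sham Chow vs. Sham HFD in edgeR (median log2 fold change 1.04) and 5 were called there by DESeq2 and by limma-voom. *Des* was high in 1 Sham HFD mouse, at 32.2 CPM, with a median of 5.00 CPM in that group beside a mean of 4.32 CPM in Sham Chow. In edgeR 3 fell in Sham HFD vs. RYGB HFD and in the interaction, *Col1a1*, *Col3a1* and *Dcn*. Of 6 hepatocyte genes, 3 fell in Sham Chow vs. Sham HFD, 4 rose and 1 fell in Sham HFD vs. RYGB HFD, 1 rose in RYGB Chow vs. RYGB HFD, the fibrinogen chain gene *Fgb*, and 3 were higher in the interaction, *Fgb*, *Cps1* and *Apoa1*. The biliary list (2 of 5 genes tested) held 1 call, *Spp1* in Sham Chow vs. Sham HFD, and so did the list of lymphocytes and neutrophils (2 of 6 tested), *Ptprc* in the same contrast. Of 5 sinusoidal endothelial genes, edgeR, DESeq2 and limma-voom called 0 in any test, with 1 at an unadjusted p under 0.05 in edgeR in each of Sham Chow vs. Sham HFD and Sham HFD vs. RYGB HFD.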
